A study of Papio anubis with 2 samples.

Results

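Isolated peaks of H3K4me3 (histone H3 trimethylated at lysine 4) were examined in cells of the adult baboon subventricular zone. An isolated peak is one with no other listed peak within 10 kb on either side, on chromosomes 1 to 15, 17 or 18 of the rhesus macaque assembly rheMac2. There were 2973 of them, which is 34.2% (95% Wilson interval 33.2% to 35.2%) of the 8689 peaks on these 17 chromosomes and 30.0% of the 9910 peaks in the whole list. Members were selected on the positions of the peaks alone, so their number and their distances to neighbours are given as descriptions.

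The study used chromatin immunoprecipitation followed by sequencing on cells of Papio anubis, the olive baboon. Cells dissociated from the subventricular zone were captured on beads carrying antibodies to glial or progenitor markers (Vimentin, GFAP, Nestin) or to markers of young neurons (Doublecortin, PSA-NCAM), fixed in 1.1% formaldehyde and sheared to fragments of 200 to 500 bp, per the labels' protocols. The labels call the captured cells neural progenitors but do not say which marker was used for these libraries, and positions alone cannot check the cell type against its defining genes. The H3K4me3 group and the total histone H3 group have 1 library each, both from adult brain, and the labels used here name no treatment and no number of animals. Only the H3K4me3 peak list was analysed, so no value of the total H3 library stands beside any peak. Read depth is unknown, and a peak carries no height, score or p-value. With 1 library there is no test between conditions, and all intervals below cover counting error over peaks only.

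H3K4me3 is placed by SET1 and MLL methyltransferase complexes and is found on nucleosomes that flank the start sites of active genes. In stem and progenitor cells it also marks start sites held ready for later use, often together with the repressive mark H3K27me3. CpG islands, which lie at many mammalian promoters, attract the enzymes that write it, and at active genes the mark commonly covers several neighbouring nucleosomes. Baboon reads were placed on a macaque assembly for which no genome or gene annotation was used here. The isolated peaks are therefore given by position, and nothing is said of genes, exons or introns at them, nor is their sequence shown.

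Isolated peaks were the commonest unit in the list. When neighbouring peaks were linked at gaps of up to 10 kb, the 17 chromosomes carried 3994 units, of which 2973 (74.4%, Wilson interval 73.1% to 75.8%) were single peaks. The others were 641 pairs, 261 groups of 3 to 9 peaks and 119 groups of 10 or more. By peaks the order was different, since the 119 largest groups alone held 3339 peaks. The isolated peaks together covered 0.452 Mb, a figure set by their near-constant width.

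Most members lay far beyond the 10 kb that defined them. The distance to the nearest other peak had a median of 176.7 kb, with quartiles of 62.8 and 417 kb. For 166 members (5.58%) the nearest peak was 10 to 20 kb away, and for another 437 it was 20 to 50 kb away. No other peak lay within 100 kb of 1904 members (64.0%), within 500 kb of 590 (19.8%) or within 1 Mb of 179 (6.02%). Members near the 10 kb limit were few. The list as a whole was sparse, with 3994 units over 2477 Mb, so no trait particular to the isolated class is read from these distances. Those just inside the limit had their nearest peak at 10050 bp (chromosome 11, 8233762 to 8233911), 10130 bp (chromosome 3, 103158402 to 103158551) and 10170 bp. The last distance was shared by 2 members that face each other on chromosome 4, at 118130902 and 118141222. Just outside it were 3 neighbouring pairs of peaks with gaps of 9990 bp, starting at 60964722 and 60974862 (chromosome 10), 138157462 and 138167602 (chromosome 4) and 47292102 and 47302242 (chromosome 6).

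**Figure D1:**
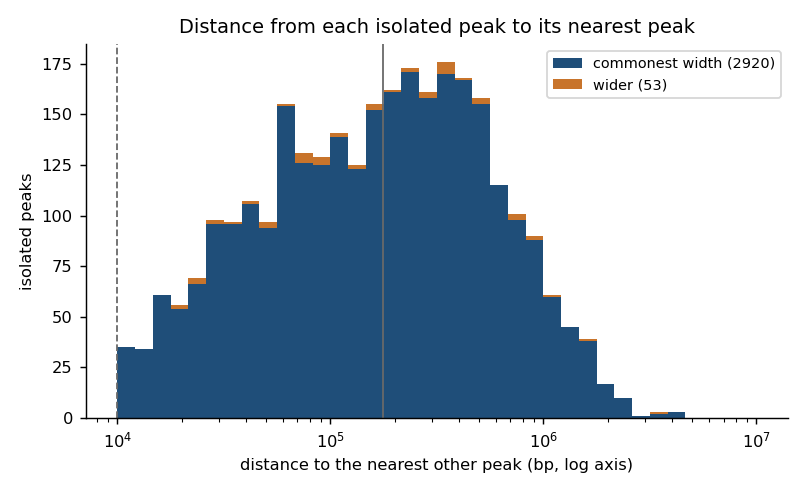
Number of isolated peaks (vertical axis) by distance in bp to the nearest other peak (horizontal log axis); blue bars are peaks of the commonest width, 150 bp (n = 2920), orange bars on top are wider peaks (n = 53), the dashed line is the 10 kb limit and the solid line the median of 176.7 kb. Few members lie near the limit, and the bulk lies between about 50 kb and 1 Mb.

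The most remote member lay on chromosome 3 at 38659602 to 38659751, with 4.41 Mb of peak-free sequence before it and 4.24 Mb after it. A member on chromosome 5 at 30538062 to 30538211 had 5.00 Mb before it and 3.98 Mb after it. The first listed peak of chromosome 10, at 697742 to 697891, had its only neighbour 3.90 Mb away. It is 1 of 18 members with a listed peak on one side only. A member on chromosome 6 at 14071342 to 14071571, 230 bp wide, had 3.58 Mb before it and 3.46 Mb after it. A further member on chromosome 5, at 172729382 to 172729531, had 3.31 Mb before it and 3.91 Mb after it. Of these 5 peaks, 2 lay on chromosome 5, which was also among the chromosomes with the fewest members per Mb. Assembly gaps and repeats, where reads cannot be placed, were not examined around these peaks.

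The nearest peak was usually another isolated peak. This held for 2284 members (76.8%, Wilson interval 75.3% to 78.3%), at a median distance of 200.6 kb. It belonged to a pair for 485 members (16.3%), at a median of 143.7 kb, and to a group of 3 to 9 for 164 (5.52%), at a median of 91.2 kb. For 40 members (1.35%, Wilson interval 0.990% to 1.83%) it belonged to a group of 10 or more, at a median of 66.1 kb. The same classes made up 74.4%, 16.05%, 6.53% and 2.98% of all units. Large groups thus made up 2.98% of units and 1.35% of nearest neighbours, and the median distance to them was the shortest of the 4 classes. These distances come from the positions that the rule used and carry no test.

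Isolated peaks also followed each other along the chromosomes in long rows with no pair or group between them. The 2973 members fell into 672 such rows with a median of 3 members. The 252 rows of 5 or more held 2084 members, 70.1% of all. Of all units, 74.4% were isolated, and whether the rows are longer than that share alone would give was not tested. The rows come from the positions that the rule used, and no trait of the members is read from them. The longest row had 25 members and ran over 15.1 Mb of chromosome 8, from 15871122 to 30993851. A row of 20 members on chromosome 18 ran over 28.3 Mb, from 43377562 to 71667611, and a row of 18 on chromosome 7 took only 7.50 Mb, from 34707142 to 42210731. The rows named here were picked with their values known, so nothing on the evenness of spacing is read from them. Between successive members the median distance was 496 kb, with quartiles of 190.0 kb and 1.13 Mb.

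The 3 longest stretches between successive members all held other listed peaks. On chromosome 5, 10.1 Mb from 117649572 to 127765241 held no isolated peak but had 3 pairs. On chromosome 8, 8.39 Mb from 135735052 to 144125001 held 1 group of 4 peaks. Another 7.19 Mb of chromosome 5, from 84056052 to 91246081, held 1 pair. In these 3 stretches, listed peaks of any kind were sparse.

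Counted by peak, chromosomes differed less in isolated peaks than in grouped ones. The density of isolated peaks was 1.20 per Mb over the 17 chromosomes and ranged from 0.748 on chromosome 18 to 1.42 on chromosome 7, a 1.90-fold range. Peaks in groups ranged from 0.757 per Mb on chromosome 2 to 4.01 on chromosome 13, a 5.31-fold range. The number of isolated peaks followed chromosome length with Pearson r = 0.91 and Spearman rho = 0.82 over the 17 chromosomes, against r = 0.37 and rho = 0.26 for grouped peaks. The last listed peak of a chromosome was used as its end. All chromosomes come from 1 library, so these correlations are descriptions. Grouped peaks count every peak of a large group, so both the ranges and the correlations with length differ in unit. The correlation of groups counted once with length was not computed, so the lower r of grouped peaks is not read as a trait of groups. With each group counted once, ratios to the number expected from length ran from 0.528 on chromosome 18 to 1.51 on chromosome 7. For isolated peaks they ran from 0.623 to 1.18 on the same chromosomes. The rule also moves close neighbours out of the isolated class, so nothing on evenness is read from these contrasts.

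Chromosome 7 had the most members for its length, with 241 isolated peaks, 1.18 times the number expected (exact 95% Poisson interval 1.04 to 1.34). Chromosome 1 followed with 316, 1.15 times (1.03 to 1.29). The place of chromosome 7 depends on the linking gap: at 20 kb its ratio was 1.14 (0.997 to 1.30) and at 50 kb 1.10 (0.946 to 1.28), both intervals holding 1 and both ratios below those of chromosome 1, at 1.17 (1.04 to 1.31) and 1.15 (1.02 to 1.31). The intervals of the other two chromosomes above 1.14 both held 1. They are chromosome 11 with 186 members, 1.15 times (0.993 to 1.33), and chromosome 14 with 183, 1.15 times (0.986 to 1.33). At the low end chromosome 18 had 55 members, 0.623 times the expected number (0.469 to 0.811), and chromosome 5 had 167, 0.764 times (0.653 to 0.889). Chromosome 13 had 127 members, 0.767 times (0.639 to 0.912), and chromosome 17 had 92, 0.812 times (0.654 to 0.995). The intervals of 2 chromosomes lay above 1, those of 4 lay below 1 and those of 11 held 1, with no adjustment over the 17. As background, the human counterparts of the 2 chromosomes above 1 are human 14 and 15 (macaque 7) and human 1 (macaque 1), and those of the 4 below 1 are human 18 (macaque 18), 4 (macaque 5), part of 2 (macaque 13) and 13 (macaque 17). Gene numbers were not counted, and their relation to these ratios was not tested.

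**Figure D2:**
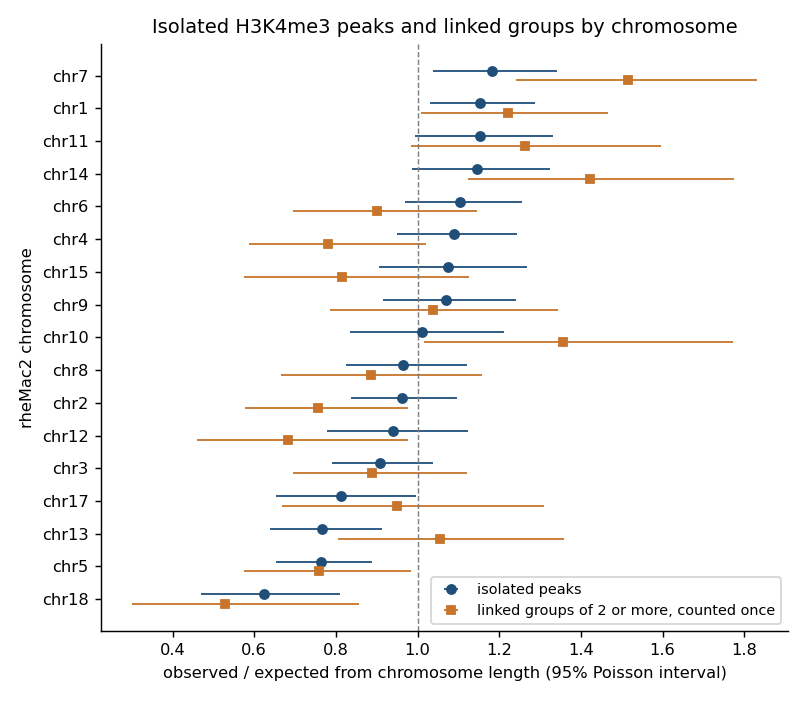
Observed over expected number from chromosome length (horizontal axis) on each of the 17 rheMac2 chromosomes (vertical axis, ordered by isolated peaks); blue circles are isolated peaks, orange squares are linked groups of 2 or more peaks counted once, and bars are exact 95% Poisson intervals. Isolated peaks range from 0.623 on chromosome 18 to 1.18 on chromosome 7, and groups range from 0.528 on chromosome 18 to 1.51 on chromosome 7.

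Isolated peaks and groups ranked the chromosomes alike only in part. At the 10 kb gap, groups of 2 or more, each counted once, were also highest for length on chromosome 7 at 1.51 times (Poisson interval 1.24 to 1.83) and lowest on chromosome 18 at 0.528 times (0.302 to 0.857). Over the 17 chromosomes the densities of both had Pearson r = 0.63 and Spearman rho = 0.63, as a description. The share of units that were isolated ran from 67.9% on chromosome 13 to 80.2% on chromosome 4. Set against the other 16 chromosomes, it was lower by 6.84 percentage points on chromosome 13 (Newcombe interval of chromosome 13 minus the others, -14.0 to -0.415) and lower by 5.46 on chromosome 7 (-10.7 to -0.630). On chromosome 4 it was 6.21 percentage points higher (0.894 to 10.7). The intervals of the other 14 chromosomes included 0, and none was adjusted over the 17 comparisons. Chromosomes 13 and 5 had nearly equal ratios of isolated peaks. Their groups stood at 1.05 times (0.805 to 1.36) and 0.760 times (0.575 to 0.984) the expected number, with intervals that overlap, and the difference was not tested.

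The share of a chromosome's peaks that were isolated varied far more, because it depends on how many peaks the large groups hold. On chromosome 2, 218 of 361 peaks were isolated, 60.4% (Wilson interval 55.3% to 65.3%), and no group of 10 or more occurred there. On chromosome 13, 127 of 681 were isolated, 18.6% (15.9% to 21.7%), beside 12 groups of 10 or more. Chromosome 9 had 13 such groups and 25.7% isolated peaks (22.5% to 29.1%), yet its 171 members were 1.07 times the number expected from length (0.914 to 1.24). A low share of isolated peaks therefore did not go with few isolated peaks on chromosome 9, while on chromosome 13 both were low.

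**Figure D3:**
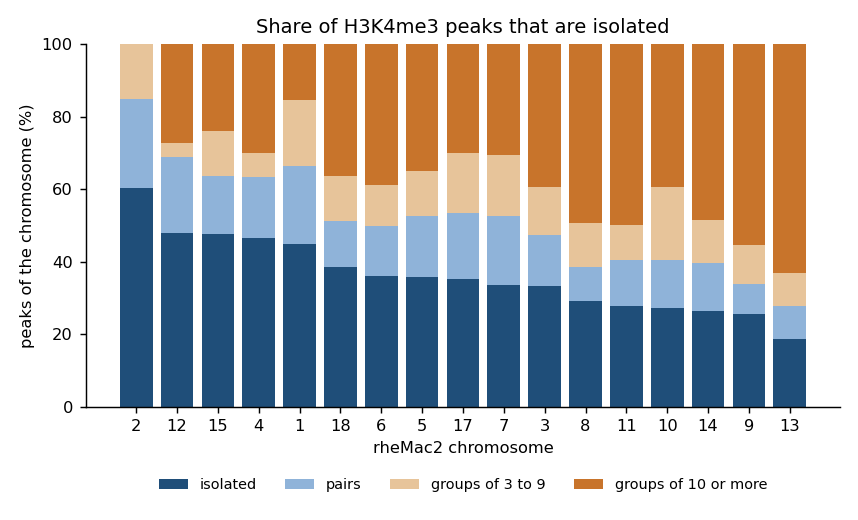
Percent of the peaks of each rheMac2 chromosome (bars, ordered by isolated share) that are isolated, in pairs, in groups of 3 to 9 and in groups of 10 or more. The isolated share falls from 60.4% on chromosome 2, which has no group of 10 or more, to 18.6% on chromosome 13.

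The chromosomes left out of the set give a comparison. On chromosomes 16, 19 and 20, the counterparts of human 17, 19 and 16, 390 of 915 peaks were isolated. At 42.6% (Wilson interval 39.5% to 45.9%) the share of isolated peaks was higher there, and the 17 chromosomes minus these 3 gave -8.41 percentage points (Newcombe interval -11.8 to -5.08). The 3 were unlike, with 38.8% on chromosome 16, 37.1% on chromosome 19 and 65.6% on chromosome 20. The difference without chromosome 20 was not computed. Counted as units, however, 75.9% (72.0% to 79.4%) were isolated, and the difference was -1.44 points (-5.20 to 2.66). Isolated peaks were 2.03 times as dense on chromosome 19 as over the 17 chromosomes (Poisson interval of the count on chromosome 19, 1.73 to 2.38) and 1.40 times as dense on chromosome 16 (1.17 to 1.66). On chromosome 20 the ratio was 0.973 (0.795 to 1.18), and on X it was 0.420 (0.332 to 0.525), where sex and copy number were not examined. Chromosome 19 thus exceeded all of the 17 in isolated peaks per Mb, at 2.44 against at most 1.42.

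Spacing to the nearest peak followed the same order in part. The median distance was shortest on chromosome 7, at 113.7 kb (quartiles 49.8 and 253.2 kb), and on chromosome 14, at 131.9 kb (44.2 and 392.3 kb). It was longest on chromosome 18, at 248.8 kb (92.7 and 486.2 kb), and on chromosome 17, at 244.3 kb (57.6 and 529.6 kb). The quartiles of these 4 chromosomes overlap, and the spread within each was wider than the differences between their medians.

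At the scale of 1 Mb, isolated peaks reached most of the genome thinly. Of 2486 windows of 1 Mb, 1600 (64.4%) held at least 1, against 676 (27.2%) that held a group of 2 or more. A single isolated peak was found in 801 windows, 2 in 455 and 3 in 204, and only 56 windows held 5 or more. Those 56 windows contained 314 members, 10.6% of all. Of the members, 1909 (64.2%) lay in windows with no group at all, which were 1810 of the 2486 windows. Those windows held 1.05 isolated peaks on average, against 1.20 over all windows, so members were not concentrated in them. The variance of the count per window was 1.37 times its mean for isolated peaks and 1.94 times for groups counted once, at means of 1.20 and 0.411 per window. The rule takes close neighbours out of the isolated class, which by itself lowers this ratio, so nothing on evenness is read from it.

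Windows with more groups also held more isolated peaks on average. The mean was 1.05 ± 1.14 (SD, n = 1810 windows) with no group, 1.41 ± 1.41 (n = 486) with 1 group, 1.64 ± 1.26 (n = 118) with 2 and 2.57 ± 2.14 (n = 72) with 3 or more. The spread within each class was wider than the steps between the means. It describes single windows and not the uncertainty of the means, and the steps were not tested. Across windows the correlation of isolated peaks with groups was weak, at Pearson r = 0.23 and Spearman rho = 0.17. Neighbouring windows had r = 0.12 for isolated peaks (n = 2469 pairs of windows) and r = 0.16 for groups. The windows share a library and an assembly, and mappability was not examined.

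The fullest window lay on chromosome 7 between 64 and 65 Mb, with 10 isolated peaks from 64034382 to 64845791 and a median step of 46.1 kb between them. It also held 4 groups with 8 peaks in all. On chromosome 10 between 68 and 69 Mb there were 8 isolated peaks from 68032942 to 68696931, beside 4 groups with 22 peaks. On chromosome 11 between 53 and 54 Mb there were 8 from 53094982 to 53989251, beside 3 groups with 8 peaks. Each of the 3 fullest windows thus held groups as well.

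Toward the chromosome ends isolated peaks and groups parted. The outer 5 Mb at each end hold 6.86% of the length and held 191 isolated peaks, 6.42% (Wilson interval 5.60% to 7.36%), but 102 groups of 2 or more, 9.99% (8.30% to 11.98%). The difference was -3.57 percentage points (Newcombe interval -5.72 to -1.63). It came from the outermost 2 Mb, where isolated peaks stood at 1.24 per Mb (Poisson interval 0.985 to 1.53) and groups at 1.03 per Mb (0.802 to 1.30). Farther in, from 2 to 5 Mb, the densities were 1.05 (0.860 to 1.27) and 0.314 (0.215 to 0.443), and beyond 40 Mb they were 1.25 (1.19 to 1.32) and 0.425 (0.387 to 0.464). Isolated peaks were least dense from 5 to 10 Mb, at 0.959 per Mb (0.817 to 1.12), below the interval beyond 40 Mb. Units in the outermost 2 Mb were isolated in 54.5% of cases (Wilson interval 46.7% to 62.2%), against 74.7% (72.7% to 76.6%) beyond 40 Mb.

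**Figure D4:**
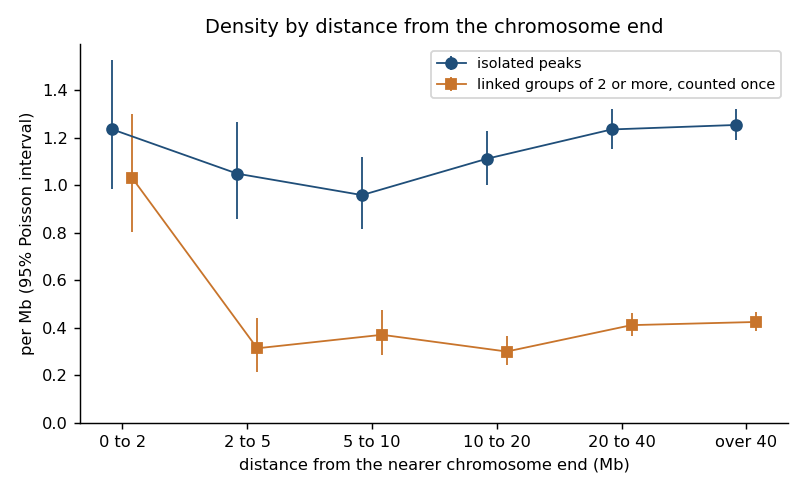
Number per Mb (vertical axis) of isolated peaks (blue circles) and of linked groups of 2 or more counted once (orange squares) by distance in Mb from the nearer chromosome end (horizontal axis, classes of unequal width); bars are exact 95% Poisson intervals. Isolated peaks range from 0.959 per Mb at 5 to 10 Mb to 1.25 per Mb beyond 40 Mb. Groups fall from 1.03 per Mb in the outermost 2 Mb to between 0.300 and 0.425 farther in.

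Of the 84 isolated peaks in the outermost 2 Mb, 36 lay at the start and 48 at the end of a chromosome, and they touched 15 of the starts and all 17 of the ends. The end was set by the last listed peak, so some unit lies there by construction. The start does not depend on it, and there the 34 groups were 3.33% of all groups (Wilson interval 2.39% to 4.62%), against 1.21% of isolated peaks (0.876% to 1.67%). Only 13 of the 17 starts held a group, and chromosomes 9 and 17 held 7 of the 34 each. Chromosome 7 held the most groups in the outermost 2 Mb, 11 of 70, and without it 6.45% of groups lay there, against 2.77% of the length. Chromosomes 13 and 17 held 9 groups each there and chromosomes 8 and 9 held 7 each, while chromosome 2 held none. The share without chromosomes 7, 8, 9, 13 and 17 together was not computed. The excess of groups is therefore not shown to be general to chromosome ends. For isolated peaks chromosome 6 gave the most, 11 of 84, and without it the share was 2.67%, against 2.78% of the length. Of the groups of 10 or more, 22 of 119 (18.5%, Wilson interval 12.5% to 26.4%) lay in the outermost 2 Mb. Of these, 7 were at the start of chromosome 9 and 7 at the last-peak end of chromosome 13. The share was 14.2% without chromosome 9, 14.02% without chromosome 13 and 8.51% (8 of 94, Wilson interval 4.38% to 15.9%) without both. A peak close to many others cannot be isolated, so a local excess of groups can itself lower the number of isolated peaks. That dependence was not separated from the values above.

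Width is the other measure in the list, and the rule did not use it. Of the 2973 isolated peaks, 2920 were 150 bp wide and 53 (1.78%, Wilson interval 1.37% to 2.32%) were 190 to 370 bp wide, with a median of 250 bp among the wider ones. The widest lay on chromosome 6 at 31602862 to 31603231 (370 bp), 114.6 kb from the nearest peak. Members of 350 bp lay on chromosome 1 at 138883562 to 138883911, 21.6 kb from the nearest peak, and on chromosome 6 at 156395282 to 156395631, 360.1 kb from it. The next place was shared by 10 members of 290 bp, of which 3 were on chromosome 1 (68058382, 212204482 and 220509542), 3 on chromosome 6 (1283482, 130631402 and 144925662), 2 on chromosome 3 (62326242 and 138548582), 1 on chromosome 14 (107632442) and 1 on chromosome 15 (92687402). The median distance to the nearest peak was 151.4 kb for the wider members (quartiles 70.9 and 379.5 kb) and 177.5 kb for those of 150 bp (62.7 and 418.0 kb), and the quartile range of the former lies inside that of the latter.

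Wider intervals were slightly commoner among isolated peaks than among peaks in large groups. The share in groups of 10 or more was 1.08% (36 of 3339), and the difference of 0.705 percentage points had a Newcombe interval of 0.119 to 1.32. Pairs had 1.25% (16 of 1282; difference 0.535, interval -0.341 to 1.26), and groups of 3 to 9 had 1.64% (18 of 1095; difference 0.139, interval -0.889 to 0.948). Isolated peaks on chromosomes 16, 19 and 20 had 1.03% (4 of 390; difference 0.757, interval -0.878 to 1.58). Chromosomes 1 and 6 each held 10 of the 53 wide members, which made 3.16% and 4.24% of the isolated peaks there, while chromosomes 13 and 17 held none. Without chromosomes 1 and 6 the share among isolated peaks was 1.36% (33 of 2421) against 1.14% in groups of 10 or more, and the difference of 0.220 points had an interval of -0.376 to 0.854. These 2 chromosomes were singled out after their values were seen, and leaving them out lowers the share among isolated peaks by construction. The interval without them holds 0 and also the full difference of 0.705. Whether the difference in width is general or rests on these 2 chromosomes therefore cannot be said. Since peaks of one group depend on each other, the true uncertainty is larger than these intervals.

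The last comparison concerned where an isolated peak ends and a compact group begins. After merging of all peaks less than or equal to 1 kb apart, and then linking, 3576 units were single intervals, the 2973 isolated peaks and another 603 compact groups. The compact groups were 496 pairs, which is 77.4% of all pairs, 98 groups of 3 to 9 and 9 groups of 10 or more. They spanned a median of 0.55 kb, with quartiles of 0.41 and 0.97 kb, and the longest spanned 10.2 kb. Most pairs were thus, at this resolution, single stretches with no other peak within 10 kb, like the isolated peaks but listed as more than one interval.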

How the data were processed

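The authors deposited 1 table for the H3K4me3 library, a peak list with 3 columns (sequence, start, end) and no unit of signal. Its file name gives the assembly rheMac2 and a false discovery rate of 0.01. Bowtie 0.12.7 is named per the submitters' processing notes. For the peak caller, its settings and any use of total H3: not given in the sources used here. Starts lie on a grid of 20 bp. They were read as counted from 0 and are printed counted from 1. If the authors counted from 1, printed starts are 1 bp too high. The baboon gene table at hand is of another assembly, so peaks were not tied to genes.

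Peaks were linked where the next start was at most 10 kb beyond the highest previous end. Linking was tested on a simulated list, merging on a small hand-made list and the intervals against known values. Groups were placed by their first peak for distance from the chromosome end and by their midpoint for windows. Expected numbers were proportional to chromosome length, with the last listed peak as the end. Intervals are at 95% (Wilson, Newcombe or exact Poisson, scipy 1.17.1, Python 3.11.15). Regions were named by rule: the 2 highest and 2 lowest chromosome ratios, the 5 widest members with ties, the 5 most remote, those nearest the limit, the 3 fullest windows and the 3 longest stretches without a member. Others named were chosen after their values were seen. The members and measures were chosen with earlier results of these data known. Planned GC content and overlap with genes were not run.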

Additional observations from a re-analysis of the deposited data

How the results depend on the processing

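The number of isolated peaks was 3133, 2807 and 2370 at linking gaps of 5, 20 and 50 kb, 2939 with only 150 bp peaks and 3576 single intervals with peaks merged at 1 kb. Their share of peaks was 36.1%, 32.3% and 27.3% at the 3 gaps. Their share of units was 69.2% at 50 kb and 89.5% after merging, which by construction turns compact groups into single intervals. The share of windows with a member was 42.1% at 500 kb and 87.4% at 2 Mb, and the correlation with groups was 0.175 and 0.301. The share near the ends was 2.83% for the outer 2 Mb, against 2.75% of the length. For the outer 10 Mb it was 11.9% (Wilson interval 10.8% to 13.1%), against 13.7% of the length. Such shares grow with the stretch by construction, but the 11.9% lay below the share of length. The share of wider members was 1.36% without chromosomes 1 and 6. The ratio of chromosome 7 fell from 1.18 to 1.14 at 20 kb and 1.10 at 50 kb, where its interval held 1 and chromosome 1 was higher (1.17 and 1.15). At the 4 linking gaps the interval of chromosome 1 lay above 1 and those of chromosomes 18 and 5 below 1. Merging for these ratios and for the ends, and leaving out chromosomes 1 and 6 or 9 and 13, were chosen after seeing the data. No paired analysis was possible because each antibody has 1 library, and leaving out replicates was impossible for the same reason. Read depth is not known, and a missing peak does not show a missing mark.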
